A study of Mus musculus with 8 samples.

Results

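The machinery that brings proteins into mitochondria was examined in brown adipose tissue (BAT) as 33 of the 44674 genes of the expression table. The members were the protein-coding genes whose symbol begins with Tomm or Timm and a digit, for translocases of the outer and inner membrane, together with *Dnajc19*, *Pam16*, *Grpel1*, *Samm50*, *Mtx1*, *Mtx2*, *Pmpca* and *Pmpcb*. Of the 33 genes, 31 had enough counts to be tested, while *Tomm20l* and *Timm8a2* had a count of 0 in all 8 mice, which allows at most 3 counts or a normalized value of 0.059 to 0.095 depending on the mouse.

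Nearly all mitochondrial proteins are encoded in the nucleus, made in the cytosol and imported. Precursors pass the outer membrane through the TOM complex, and from there those with a cleavable presequence enter the matrix through the TIM23 complex, pulled by the PAM motor, where the processing peptidase MPP removes the presequence. Carrier proteins of the inner membrane, the family to which the uncoupling protein UCP1 belongs, are escorted by small TIM chaperones to the TIM22 complex, and barrel-shaped proteins of the outer membrane are inserted by the SAM complex. Brown adipocytes are rich in mitochondria and burn fuel for heat through UCP1.

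BAT of 8 male mice was compared by poly-A selected, stranded mRNA sequencing. The 4 Ox1RΔSERT mice carried loxP-flanked alleles of the orexin receptor Ox1R (Ox1R fl/fl) and 1 copy of Sert-Cre (Sert-Cre tg/wt), which deletes the receptor in cells that express the serotonin transporter, chiefly serotonergic neurons of the raphe nuclei. The 4 control mice came from the same breeding and carried the same Ox1R fl/fl alleles without Cre (Sert-Cre wt/wt), so that effects of Cre itself and of the receptor's loss cannot be told apart. All ate a high-fat diet (HFD) from week 4 to week 18, and BAT was taken between 14 and 16 h at the end of a hyperinsulinemic-euglycemic clamp, in which insulin is infused and glucose given to hold blood glucose steady, about a week after catheter surgery. The reporter of this Cre line also marked cells in the cingulate cortex and in thalamic nuclei. Libraries held 35852667 to 50063257 counts. *Hcrtr1*, the gene of Ox1R, had 0 to 5 counts in each mouse of both groups, so the deletion in the brain cannot be checked in this tissue.

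Brown fat markers were present in each mouse: *Ucp1* read 3731, 3806, 4895 and 4631 in the controls, which are mice 10684, 11253, 11560 and 11563, against 3817, 2513, 2903 and 2513 in the Ox1RΔSERT mice, which are 11243, 11601, 11613 and 11708. These are normalized values (CPM after TMM scaling), and the mice keep this order throughout. Markers of other cell types were not even between mice. The summed level of 8 leukocyte and macrophage markers was 114 to 254 in control mice and 187, 911, 203 and 716 in Ox1RΔSERT mice. For 5 fibroblast markers the sum was 361 to 988 in control mice and 646, 5378, 950.2 and 2501 in Ox1RΔSERT mice. Mice 11601 and 11708 thus held the highest sums of both lists and the lowest sums of 10 brown adipocyte markers, 4846 and 4707 against 6773 to 8913 in the other 6 mice. Skeletal muscle markers summed to 1563 in control mouse 11253 and 2138 in mouse 11708, against 2.46 to 177 in the other mice. The 4 endothelial markers summed to 227 to 320.5 in control and 221 to 298 in Ox1RΔSERT mice, the 3 Schwann cell markers to 2.98 to 10.3 and 2.05 to 7.57, and the 2 white adipocyte markers to 31.1 to 127 and 56.96 to 159. By log2 fold change, 8 of 8 leukocyte, 5 of 5 fibroblast and 7 of 8 muscle markers were above 0 and 10 of 10 brown adipocyte markers below 0, and edgeR called 0 of these markers, while DESeq2 called 4 of the leukocyte, 1 of the fibroblast and 1 of the brown adipocyte markers. The brown adipocyte markers differed in size, from -1.22 in *Dio2* to -0.030 in *Plin1*, with *Pparg* at -0.033 and *Prdm16* at -0.051. *Ucp1* and *Cidea* made up most of their sum in each mouse. *Prdm16* read 18.6 in mouse 11601, inside its control range of 9.61 to 24.3. The list also holds *Pparg*, *Adipoq* and *Plin1*, which are not particular to brown adipocytes. No marker was at 0 in every mouse. In whole tissue, fewer cells of a type and less RNA per cell cannot be told apart.

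The comparison asked whether loss of Ox1R in SERT-expressing cells went along with another level of import genes in BAT. No import gene passed the test. On the TMM scale, 30 of 31 had a lower mean level in Ox1RΔSERT mice, with a median log2 fold change of -0.23 and a range from -0.55 to 0.17. Among all 14489 genes tested the median was 0.0021, and 49.6% had a log2 fold change below 0. The import gene above 0 was *Tomm34*. The direction depended on the scaling: 18 of 31 genes were below 0 with library totals, and 1 of 31 on log2(TPM + 0.1), where the median was 0.10 against 0.32 for all genes. Without mice 11601 and 11708 the median on TMM-scaled counts was -0.058. By edgeR's quasi-likelihood test with Benjamini-Hochberg adjustment over all genes, 0 of 31 import genes reached an adjusted p under 0.05, as did 0.0% of all genes, although 2201 of all genes had an unadjusted p under 0.05. Adjusted p of import genes lay between 0.316 and 0.894. By DESeq2, 1.75% of the genes with an adjusted p were called and again 0 of 31 import genes, with adjusted p of 0.132 to 0.921. Without adjustment, 10 of 31 import genes had a p under 0.05 in edgeR, all 10 lower in Ox1RΔSERT mice, against 4.96% of all genes in that direction. These 10 are *Timm17a*, *Timm22*, *Pam16*, *Tomm7*, *Tomm6*, *Timm9*, *Timm29*, *Timm8a1*, *Tomm20* and *Timm8b*. In 5 genes, *Timm17a*, *Timm22*, *Timm29*, *Tomm6* and *Timm8b*, every Ox1RΔSERT mouse was below every control mouse, against 2.81% of all genes.

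**Figure D1:**
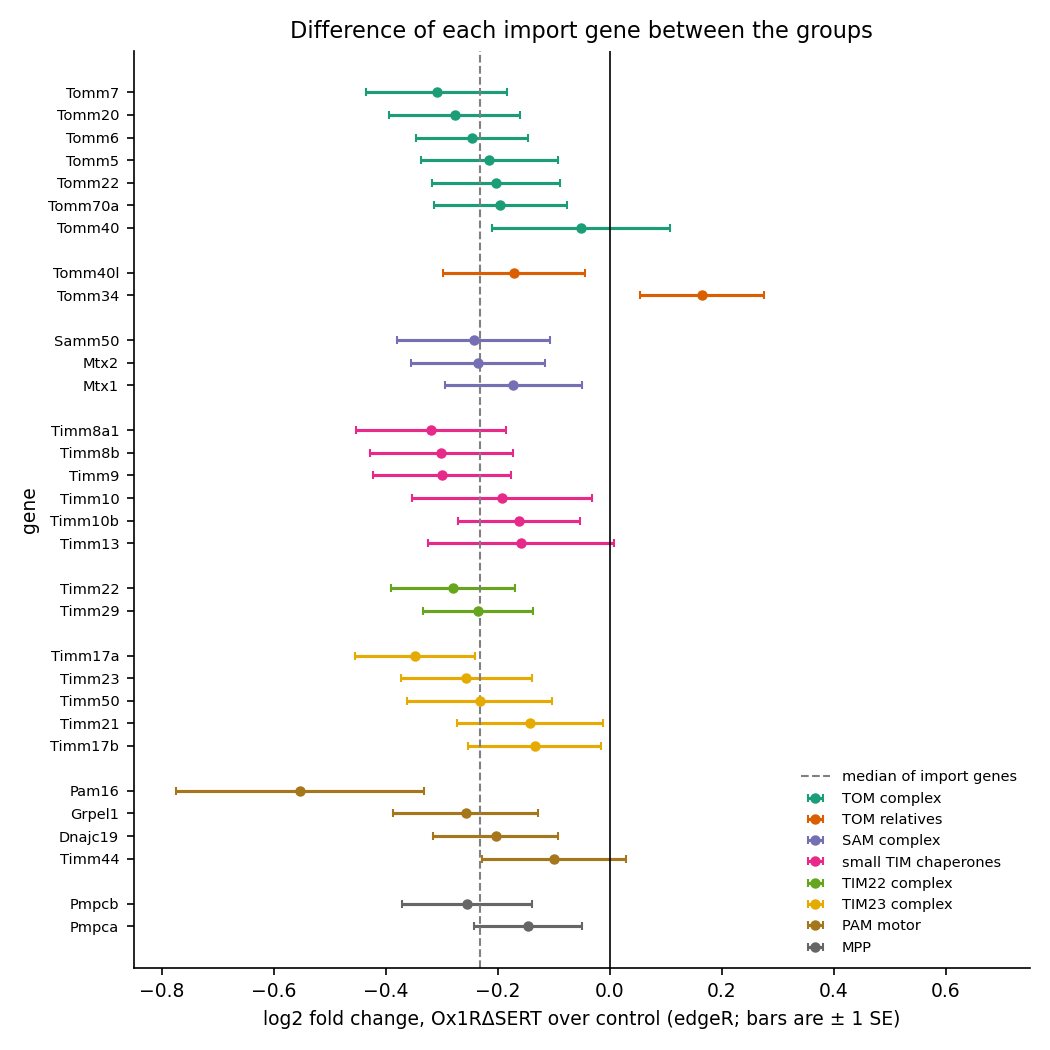
Log2 fold change (x axis) of the 31 tested import genes (y axis) between 4 Ox1RΔSERT and 4 control mice from edgeR on the TMM scale, with bars of ± 1 SE and colors for the complex. All points except Tomm34 lie left of 0, the dashed line marks the median of -0.23, and the wide bar is that of Pam16.

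The TOM complex is the gate of the outer membrane. All 7 of its genes had a log2 fold change below 0, from -0.31 to -0.051, and 3 had an unadjusted p under 0.05. *Tomm7*, a small subunit (chr5:23838944-23844161, minus strand; positions are those of GENCODE M21 on GRCm38), read 69.3, 72.6, 68.1 and 63.4 in control mice and 64.2, 51.7, 61.2 and 43.6 in Ox1RΔSERT mice (log2 fold change -0.31, SE 0.13, unadjusted p = 0.0368, edgeR adjusted p = 0.320). Mouse 11243 lay inside the control range and the other 3 below it. *Tomm6*, another small subunit (chr17:47686646-47688386, minus strand), read 47.3, 46.4, 46.1 and 46.7 in control mice and 45.6, 39.4, 39.3 and 32.9 in Ox1RΔSERT mice (log2 fold change -0.25, SE 0.10, unadjusted p = 0.0372, edgeR adjusted p = 0.320). The groups did not overlap, but mouse 11243 was only just outside, and 76.0% of the exonic bases of *Tomm6* also belong to *Gm21981* on the same strand, so its counts rest on how Salmon shared out reads. *Tomm20*, the receptor for presequences (chr8:126930667-126945844, minus strand), read 70.95, 86.5, 79.1 and 88.4 against 75.2, 69.5, 68.3 and 55.2 (log2 fold change -0.28, SE 0.12, unadjusted p = 0.0426, edgeR adjusted p = 0.325). Control mouse 10684 was below mouse 11243, and the other 3 Ox1RΔSERT mice were below all control mice.

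The other receptors were near these values without reaching an unadjusted p under 0.05: *Tomm22*, the central receptor, had a log2 fold change of -0.20 ± 0.11 (SE), and *Tomm70a*, which receives carrier precursors, had -0.20 ± 0.12 (SE). *Tomm5*, a small subunit, had -0.21 ± 0.12 (SE). *Tomm40*, the channel itself, had the value closest to 0 of all import genes on the TMM scale: it read 54.8, 49.5, 46.2 and 51.1 in control mice and 51.1, 39.2, 64.2 and 40.02 in Ox1RΔSERT mice, a log2 fold change of -0.051 ± 0.16 (SE). Mouse 11613 was the highest of all 8 and mouse 11601 the lowest. Its paralog *Tomm40l* had -0.17 ± 0.13 (SE), and 64.3% of the exonic bases of *Tomm40l* lie opposite *Nr1i3*, which affects its count if strand was not used. *Tomm34*, a cytosolic co-chaperone named for the complex although it is no part of it, was on the TMM scale the only import gene with a higher mean in Ox1RΔSERT mice: 9.36, 8.28, 9.48 and 8.39 in control mice against 8.87, 9.82, 10.2 and 10.96 (log2 fold change 0.17, SE 0.11, unadjusted p = 0.170, edgeR adjusted p = 0.475). Mouse 11243 lay within the control range and the other 3 above it.

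The SAM complex builds barrel-shaped proteins, among them *Tomm40*, into the outer membrane. *Samm50*, its core, had a log2 fold change of -0.24 ± 0.14 (SE), and the metaxins *Mtx1* and *Mtx2* had -0.17 ± 0.12 (SE) and -0.23 ± 0.12 (SE). None of the 3 had an unadjusted p under 0.05, and in each of them mice 11601 and 11708 alone were below all control mice.

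Small TIM chaperones carry hydrophobic precursors across the intermembrane space, *Timm9* together with *Timm10* and Timm8 proteins together with *Timm13*. All 6 tested genes were below 0, from -0.32 to -0.16, and 3 had an unadjusted p under 0.05. *Timm8a1*, on the X chromosome (chrX:134537256-134541865, minus strand), read 41.6, 51.8, 49.5 and 54.1 in control mice and 45.1, 40.9, 41.2 and 30.6 in Ox1RΔSERT mice (log2 fold change -0.32, SE 0.13, unadjusted p = 0.0416, edgeR adjusted p = 0.324). Control mouse 10684 lay below mouse 11243 and just above mouse 11613. *Timm8b* (chr9:50603910-50605320, plus strand) read 59.5, 63.9, 59.9 and 60.7 against 58.8, 44.95, 55.1 and 39.3 (log2 fold change -0.30, SE 0.13, unadjusted p = 0.0435, edgeR adjusted p = 0.325), with no overlap between the groups. *Timm9* (chr12:71123173-71136684, minus strand) read 31.9, 37.001, 37.1 and 38.7 against 33.9, 27.3, 32.3 and 24.1 (log2 fold change -0.30, SE 0.12, unadjusted p = 0.0380, edgeR adjusted p = 0.321), and here mice 11243 and 11613 were both above control mouse 10684. The partners of these chaperones had smaller differences: *Timm10* had -0.19 ± 0.16 (SE), *Timm13* had -0.16 ± 0.17 (SE) and *Timm10b* had -0.16 ± 0.11 (SE). In *Timm10* and *Timm13*, mouse 11613 was the highest of all 8 mice.

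The TIM22 complex inserts carriers into the inner membrane. In both of its genes among the members the groups did not overlap, against 2.81% of all genes tested in this direction. *Agk*, one of the inner membrane partner genes described below, had overlapping groups and a log2 fold change of -0.15 ± 0.11 (SE). *Timm22*, its channel (chr11:76406952-76416292, plus strand), read 17.8, 19.9, 18.3 and 18.3 in control mice and 17.03, 13.7, 17.02 and 13.5 in Ox1RΔSERT mice (log2 fold change -0.28, SE 0.11, unadjusted p = 0.0333, edgeR adjusted p = 0.317). *Timm29*, which holds the complex together (chr9:21592722-21595970, plus strand), read 58.5, 58.7, 60.1 and 57.99 against 56.5, 47.5, 53.6 and 42.4 (log2 fold change -0.23, SE 0.098, unadjusted p = 0.0413, edgeR adjusted p = 0.324). In both genes mice 11601 and 11708 were the lowest, and mice 11243 and 11613 lay between them and the control mice.

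Of the 5 genes of the TIM23 complex, *Timm17a* had the lowest unadjusted p of all import genes. It forms the translocation path together with *Timm23*. *Timm17a* (chr1:135295213-135313778, minus strand) read 94.4, 91.4, 99.4 and 96.98 in control mice and 89.6, 69.4, 75.9 and 65.4 in Ox1RΔSERT mice, with means of 95.5 ± 3.40 (SD, n = 4) and 75.1 ± 10.6 (SD, n = 4) (log2 fold change -0.35, SE 0.11, unadjusted p = 0.0104, edgeR adjusted p = 0.316). All 4 Ox1RΔSERT mice were below all control mice, mouse 11243 by the least. Its paralog *Timm17b*, on the X chromosome, read 12.998, 13.7, 12.4 and 13.3 against 12.8, 11.1, 13.9 and 10.1, a log2 fold change of -0.13 ± 0.12 (SE), with mouse 11613 the highest of the 8. *Timm23* had -0.26 ± 0.12 (SE), the presequence receptor *Timm50* had -0.23 ± 0.13 (SE), and *Timm21*, which links the complex to TOM, had -0.14 ± 0.13 (SE).

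In the PAM motor, which pulls precursors into the matrix, the largest difference of all import genes was that of *Pam16*, a regulator of the motor's J protein (chr16:4616464-4624988, minus strand). It read 13.6, 20.3, 14.5 and 15.6 in control mice and 9.13, 9.21, 16.2 and 9.11 in Ox1RΔSERT mice (log2 fold change -0.55, SE 0.22, unadjusted p = 0.0349, edgeR adjusted p = 0.317). Mice 11243, 11601 and 11708 lay below every control mouse and close to each other, whereas mouse 11613 was inside the control range. With a mouse left out, the log2 fold change ranged from -0.81 without mouse 11613 to -0.43 without control mouse 11253, and it was -0.33 without mice 11601 and 11708. Counts of *Pam16* were not whole in any of the 8 mice, that is, Salmon shared out its reads in each of them, and 18.7% of its exonic bases lie opposite *Glis2*. The J protein *Dnajc19* had -0.20 ± 0.11 (SE), the exchange factor *Grpel1* had -0.26 ± 0.13 (SE), and *Timm44*, which anchors the motor to the channel, had -0.10 ± 0.13 (SE). MPP consists of *Pmpca* and *Pmpcb*. *Pmpcb*, the catalytic subunit, read 259, 220.2, 255 and 238 against 244, 179, 199.97 and 192 (log2 fold change -0.26 ± 0.12 (SE)), and *Pmpca* read 129.95, 117, 128 and 122 against 126, 101, 118 and 104 (-0.15 ± 0.096 (SE)).

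**Figure D2:**
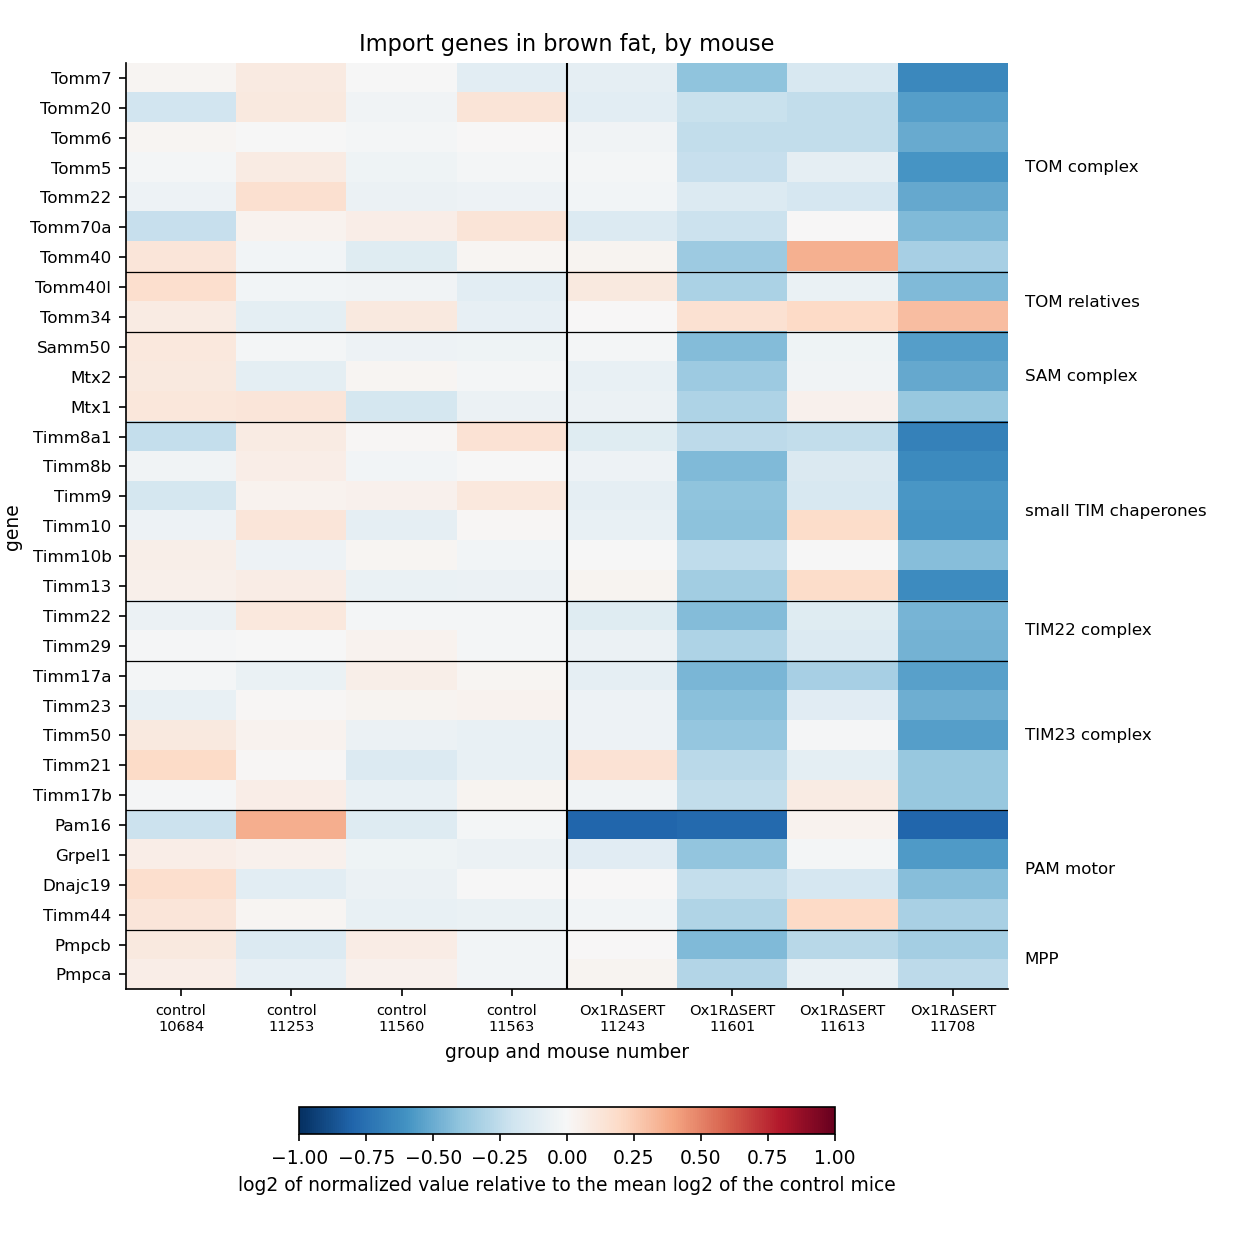
Log2 normalized value of each of the 31 tested import genes (y axis, grouped by complex) in each of 4 control and 4 Ox1RΔSERT mice (x axis), relative to the mean log2 value of the control mice, on a color scale from -1 to 1. The columns of mice 11601 and 11708 are blue in all genes but Tomm34, while that of mouse 11243 is close to white except in Pam16.

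The 4 Ox1RΔSERT mice were not alike. Relative to the control mean, the median over the 31 import genes was -0.048, -0.32, -0.073 and -0.50 on the log2 scale in mice 11243, 11601, 11613 and 11708, and between -0.033 and 0.036 in the control mice. Mice 11601 and 11708 lay below all 4 control mice in 29 of 31 genes, and held the 2 lowest values of all 8 mice in 25, against 15.3% of all genes tested. Mouse 11708 was the lowest of all in 27 genes. Mouse 11243 was within the control range in 24 genes and below it in 7. Mouse 11613 was below the control range in 13 genes, within it in 12 and above it in 6. Without mice 11601 and 11708, the median log2 fold change was -0.058, with 23 of 31 genes below 0 and 0 of 31 at an unadjusted p under 0.05 in edgeR. These are the mice with the high leukocyte and fibroblast sums given above and, in mouse 11708, muscle markers. Control mouse 11253 also held muscle markers, with a sum of 1563, and its median over the import genes was 0.036. The part of leukocytes, fibroblasts and muscle in the lower import genes was not tested.

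Other gene lists for mitochondria put the 4 Ox1RΔSERT mice in the same order. The median log2 fold change was -0.21 over 78 mitochondrial ribosomal proteins, with 77 below 0 and 20 at an unadjusted p under 0.05 in the lower direction. For 37 nuclear subunits of complex I it was -0.27, with 37 below 0 and 11 at such a p. For 41 tested nuclear subunits of complexes III to V it was -0.28, with 38 below 0 and 9 at such a p. Of all genes tested, 4.96% had such a p in the lower direction. Every Ox1RΔSERT mouse was below every control mouse in 13 of the 78 mitochondrial ribosomal proteins. The same held for 6 of the 37 complex I genes and 6 of the 41 genes of complexes III to V. For import genes it was 5 of 31, and for all genes tested 2.81%. In mouse 11708 the median of import genes was -0.50, next to -0.49 for mitochondrial ribosomal proteins, -0.65 for complex I and -0.69 for complexes III to V. In mouse 11601 the values were -0.32, -0.33, -0.49 and -0.47. Differences between these lists were not tested.

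**Figure D3:**
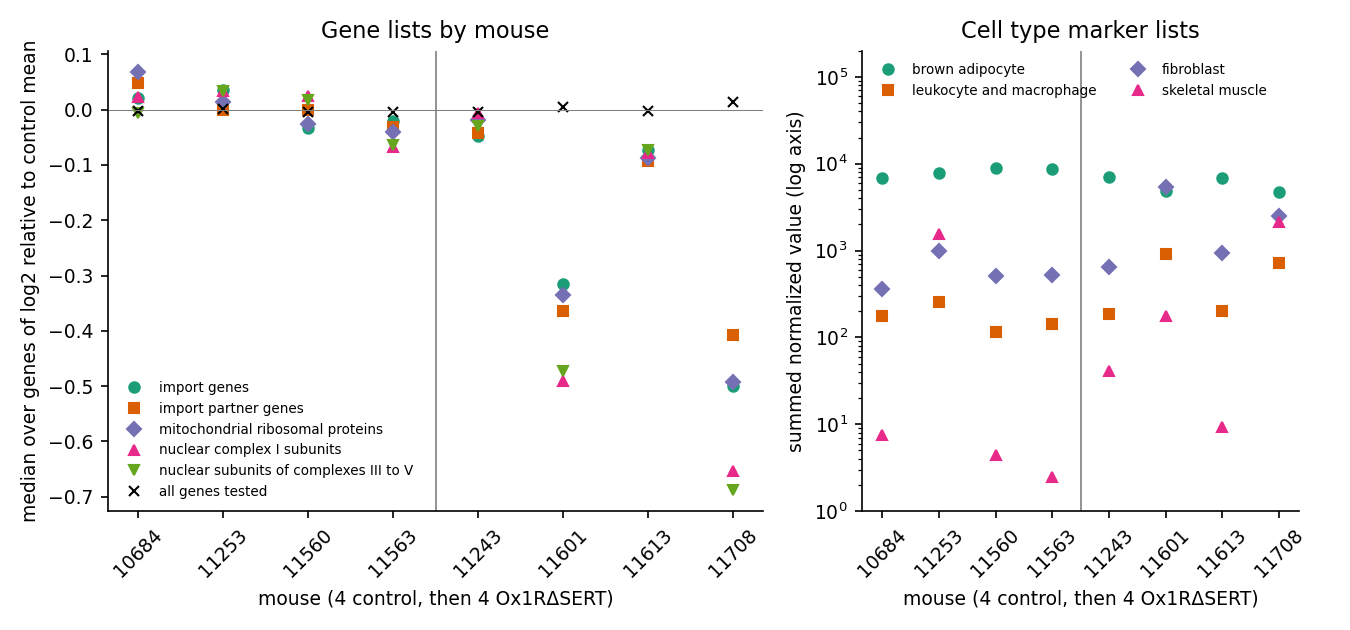
Left, the median over each gene list of the log2 value relative to the control mean (y axis) in each mouse (x axis); right, the summed normalized value of marker lists on a log axis. All mitochondrial lists sit low in mice 11601 and 11708, the mice with the highest leukocyte and fibroblast sums, and all genes tested stay near 0.

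Proteins that work with the import machinery were described with a list of 39 genes. All 39 were tested and had a log2 fold change below 0 on the TMM scale, with a median of -0.19, while the median on log2(TPM + 0.1) was 0.13. None passed in edgeR or DESeq2, and 7 had an unadjusted p under 0.05 in edgeR, against 4.96% of all genes in the lower direction. The 3 with the lowest p were *Apoo*, a subunit of the MICOS complex that shapes cristae, *Hspd1*, the matrix chaperone HSP60, and *Hspe1*, its cochaperone. *Apoo* read 120.02, 112, 112 and 111 in control mice and 109.7, 80.9, 85.7 and 82.4 in Ox1RΔSERT mice (log2 fold change -0.34, SE 0.11, unadjusted p = 0.0132, edgeR adjusted p = 0.316). *Hspd1* read 914, 939, 1256 and 1229.96 against 862, 695, 906 and 733 (log2 fold change -0.44, SE 0.15, unadjusted p = 0.0192, edgeR adjusted p = 0.316). In 3 of the 39 partners, both of these genes and *Chchd3*, the groups did not overlap, against 2.81% of all genes tested. *Hspe1* read 154, 208, 275 and 262 against 160.03, 129.9, 192 and 129 (log2 fold change -0.56, SE 0.20, unadjusted p = 0.0244, edgeR adjusted p = 0.316), with control mouse 10684 below mice 11243 and 11613. *Hspa9*, the Hsp70 that drives the PAM motor, had -0.35 ± 0.13 (SE) and an unadjusted p of 0.0256. By group, the medians were -0.36 for 6 matrix chaperones, -0.28 for 7 MICOS genes, -0.28 for 3 genes of the intermembrane space relay, -0.19 for 9 proteases, -0.14 for 8 proteins of the outer membrane and -0.14 for 6 of the inner membrane. Without mice 11601 and 11708, 27 of 39 were below 0 with a median of -0.058.

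The sign of the difference depended on the scale. TMM sets the bulk of genes equal between mice, and under it, RLE and upper-quartile factors the median of import genes was -0.23 to -0.25. With library totals alone it was -0.030, with 18 of 31 genes below 0, and the median of all genes was 0.22. On log2(TPM + 0.1) with limma it was 0.10, with 1 of 31 below 0, that of *Pam16*, while the median of all genes was 0.32. Set against the median of all genes, import genes were lower under each of these scalings, with a difference of -0.13 on log2(TPM + 1) to -0.25 with library totals. As a share of all transcripts, import genes summed to 1761, 1549, 1669 and 1730.0 TPM in control mice and to 1586, 1892, 2007 and 1677 TPM in Ox1RΔSERT mice, and the groups overlapped. Genes of the mitochondrial genome took 39.99% to 46.8% of counts in control mice and 44.6%, 33.6%, 34.002% and 36.2% in Ox1RΔSERT mice. With these genes removed before TMM, the median of import genes was -0.23.

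**Figure D4:**
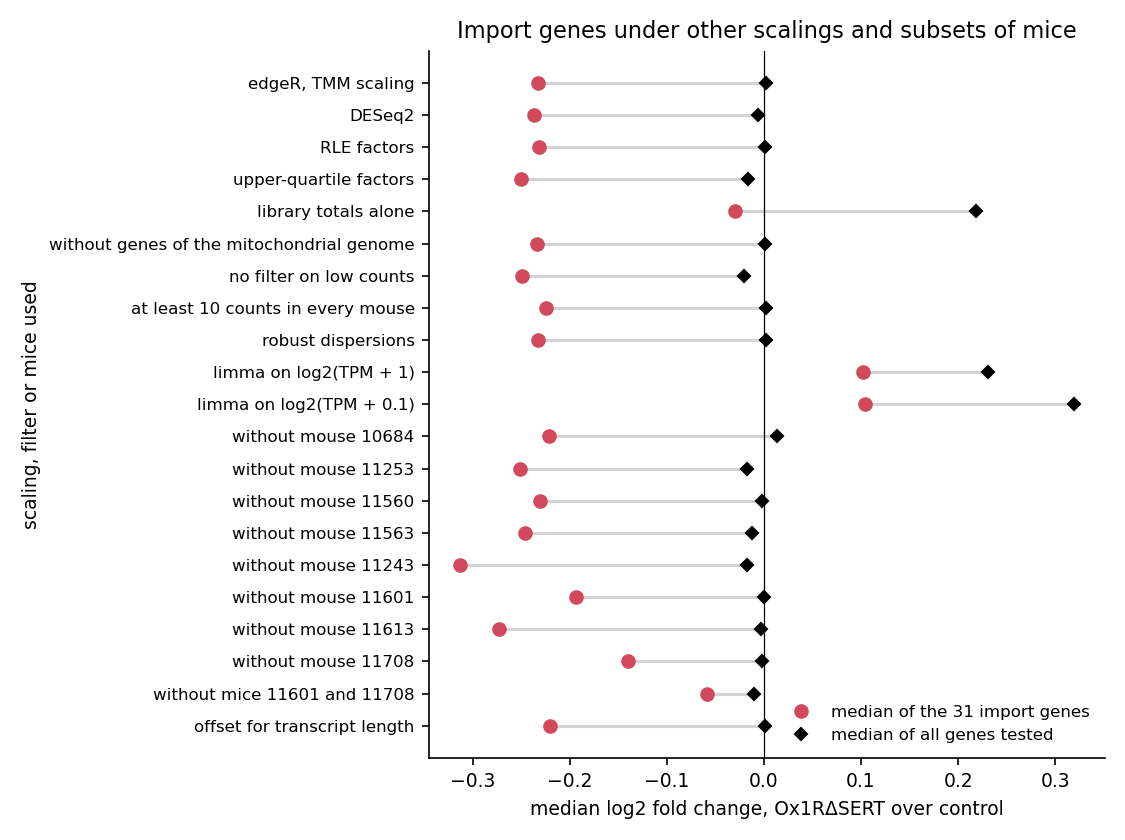
Median log2 fold change (x axis) of the 31 import genes (circles) and of all genes tested (diamonds) under each scaling, filter or subset of mice (y axis). Circles lie left of diamonds in each row, and the gap is narrowest without mice 11601 and 11708, at -0.047.

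Levels between genes were compared per transcript length, as TPM in control mice. They spanned 41.4-fold, and all 31 genes were above 3.22 TPM, the median of all genes tested. *Timm8b* was highest at 162 ± 4.79 TPM (SD, n = 4), followed by *Timm23* at 143 ± 8.47, *Pmpcb* at 136 ± 11.04, *Samm50* at 104 ± 8.96, *Tomm5* at 101 ± 3.84 and *Timm17a* at 92.3 ± 10.4. At the low end stood *Tomm20* at 13.8 ± 1.27, *Timm22* at 13.4 ± 1.22, *Timm17b* at 11.4 ± 1.44 and *Tomm34* at 3.90 ± 0.437. Of the 30 pairs of neighbours in this order, 25 had overlapping ranges over the 4 control mice. The 5 gaps lay between *Timm8b* and *Timm23*, *Pmpcb* and *Samm50*, *Tomm7* and *Tomm22*, *Timm29* and *Tomm20*, and *Timm17b* and *Tomm34*. The median import gene, *Grpel1*, stood at 41.4 ± 2.93 TPM. The groups overlapped in TPM in each import gene. TPM also reflects the transcript length that Salmon assigned: in mouse 11613 it was more than 5% off the gene's mean over mice in 10 of 31 genes, against 1 to 8 genes in the other mice. With this length as an offset in edgeR the median log2 fold change of import genes was -0.22, with 30 of 31 below 0.

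**Figure D5:**
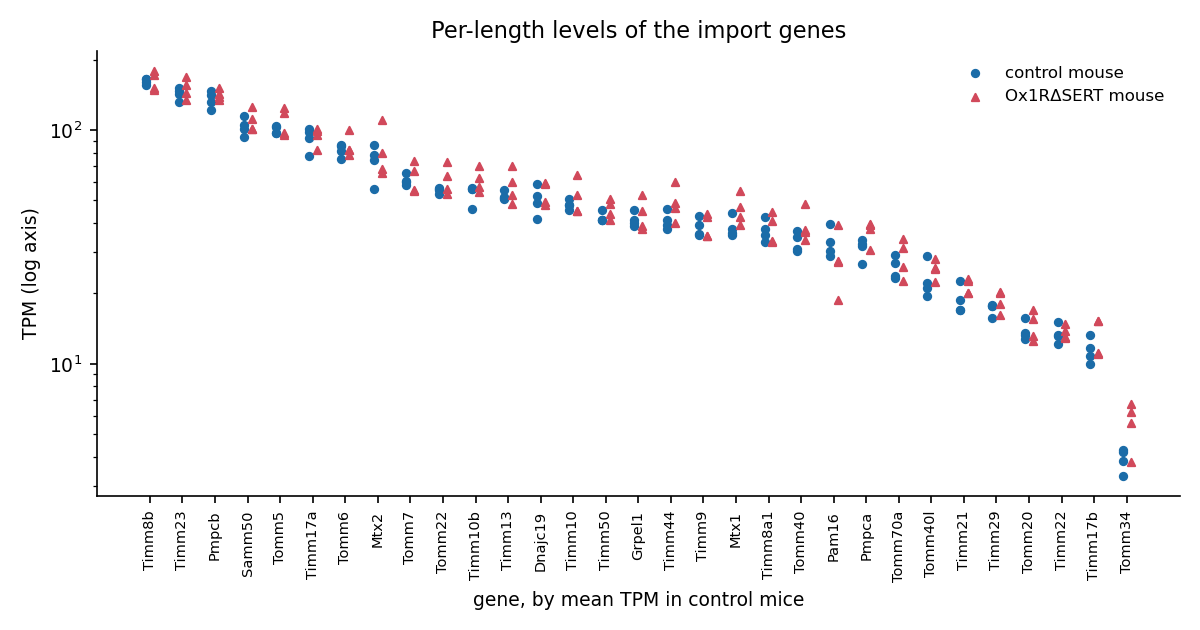
TPM (y axis, log scale) of the 31 tested import genes (x axis, by mean in control mice) in each control mouse (circles) and Ox1RΔSERT mouse (triangles). Values run from Timm8b at 162 to Tomm34 at 3.90 TPM, and the groups overlap in every gene.

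Ratios within a mouse compare paralogs or subunits that work as a pair. *Timm17a* exceeded *Timm17b* 8.10-fold in control mice, with log2 ratios of 3.22, 2.74, 3.18 and 2.93 in control and 2.88, 2.73, 2.70 and 3.11 in Ox1RΔSERT mice. The counts of both paralogs were not whole in any of the 8 mice, so the split of reads between similar transcripts enters this ratio. *Grpel1* exceeded *Grpel2* 7.70-fold, with log2 ratios of 2.94 ± 0.21 (SD, n = 4) in control and 2.86 ± 0.18 in Ox1RΔSERT mice. *Tomm40* and *Tomm40l* were closer, 1.47-fold apart, with 0.56 ± 0.13 (SD, n = 4) in control and 0.61 ± 0.22 in Ox1RΔSERT mice. In the other direction, *Dnajc15*, a paralog of the J protein *Dnajc19*, exceeded it 4.29-fold, with log2 ratios of -2.10 ± 0.19 (SD, n = 4) in control and -1.95 ± 0.10 in Ox1RΔSERT mice. *Timm8b* exceeded *Timm8a1* 4.35-fold, with -2.12 ± 0.15 (SD, n = 4) in control and -2.10 ± 0.11 in Ox1RΔSERT mice. *Mtx2* exceeded *Mtx1* 1.90-fold, with -0.93 ± 0.18 (SD, n = 4) in control and -0.80 ± 0.21 in Ox1RΔSERT mice. *Timm9* and *Timm10*, which form a complex of equal parts, were 1.25-fold apart, with -0.32 ± 0.12 (SD, n = 4) in control and -0.40 ± 0.11 in Ox1RΔSERT mice. The paired subunits *Pmpca* and *Pmpcb* had log2 ratios of -2.12, -2.19, -2.11 and -2.05 in control and -2.14, -1.86, -1.82 and -2.01 in Ox1RΔSERT mice. No ratio of the 8 passed an exact permutation test between the groups, two-sided: unadjusted p was 0.114 for *Pmpca*/*Pmpcb*, 0.257 for *Timm17a*/*Timm17b* and up to 0.943, and p adjusted over the 8 pairs was 0.594 or more. With 4 mice against 4, the smallest p this test can give is 0.0286 before adjustment. A pair that separated alone could therefore not pass after adjustment, and the result does not show that the ratios are equal. The differences between the group means were -0.16 to 0.16 on the log2 scale.

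Promoter sequences were searched for motifs known from nuclear genes of mitochondrial proteins. RefSeq promoters (GRCm38.p6, 250 bases before to 50 after the start) were matched for 30 of 33 genes and both strands were read. CCGGAAG, a core bound by ETS factors such as GABPA, was found in 14 of 30, or 46.7%, against 9.93% of 27025 genes in the table and 19.3% of those tested here. GCATGCGC, the core of the NRF1 motif, was in 2 of 30, *Grpel1* and *Timm13*, against 3.05% of all and 5.66% of tested genes. TGACGTCA, the cAMP response element, was in 0 of 30 against 2.03% and 3.42%, and TATAAA was in 3 of 30 against 15.7% and 9.18%. The median log2 fold change was -0.20 for 13 tested genes with the ETS core and -0.24 for 15 without, which was not tested. A match is a description of the letters. The promoters of *Timm17a*, *Timm22* and *Pam16* held none of the 4 motifs in this window. The same was true of other import genes, among them *Tomm40* (log2 fold change -0.051), *Timm44* (-0.10) and *Timm17b* (-0.13).

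The 4 promoters below were chosen to show the ETS core around the start in a chaperone, a channel and a receptor, and the NRF1 core in a motor gene. Each runs from 110 bases before to 30 after the start, 5′ to 3′ on the gene's strand, with CCGGAAG, GCATGCGC or their reverse complements in capitals. They are chr2:84826911-84827050 (plus strand) for *Timm10*, chr14:32201862-32202001 (minus strand) for *Timm23*, chr15:79670758-79670897 (plus strand) for *Tomm22* and chr5:36465075-36465214 (plus strand) for *Grpel1*.
Timm10: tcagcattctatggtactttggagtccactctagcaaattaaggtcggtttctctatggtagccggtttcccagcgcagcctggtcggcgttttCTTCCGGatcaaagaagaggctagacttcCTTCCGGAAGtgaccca
Timm23: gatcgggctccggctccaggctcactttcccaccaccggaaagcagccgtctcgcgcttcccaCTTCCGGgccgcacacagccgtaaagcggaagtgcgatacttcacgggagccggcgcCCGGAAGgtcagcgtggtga
Tomm22: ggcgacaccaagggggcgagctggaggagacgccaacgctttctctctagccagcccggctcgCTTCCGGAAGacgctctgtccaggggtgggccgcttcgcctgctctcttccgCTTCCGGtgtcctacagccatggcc
Grpel1: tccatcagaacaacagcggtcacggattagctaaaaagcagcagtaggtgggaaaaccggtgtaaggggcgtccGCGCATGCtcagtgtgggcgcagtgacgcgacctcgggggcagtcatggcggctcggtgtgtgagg
In *Timm10* and *Tomm22*, 2 ETS matches on opposite strands share bases, so that 10 letters read the same on both strands. In *Grpel1* the NRF1 core begins 36 bases before the start, and its ETS match lies upstream of the stretch shown.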

How the data were processed

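Per the labels and the study's methods, the authors quantified reads with Salmon 0.14.1 in nf-core/rnaseq 1.4 on GRCm38 and deposited estimated counts per gene, not normalized, and TPM values, which the authors normalized for transcript length and library size. The annotation release, strand setting and trimming are not given in the sources used here. Symbols and positions came from GENCODE M21 on GRCm38. Estimated counts were rounded. All 8 mice entered 1 fit without covariates with edgeR 4.0.16 in R 4.3.3 (filterByExpr, TMM, glmQLFit, glmQLFTest), two-sided, adjusted over 14489 genes at a threshold of 0.05. The SE came from the log2 fold change and its F value. Log2 medians by mouse used a pseudocount of 0.1. The alternatives were DESeq2 1.42.0, limma 3.58.1 on TPM, other scalings and filters, and mice left out. Ratios used TPM and exact permutation over 70 assignments. The tests were tried on simulated data with changes larger than those of the import genes. Their dispersion was set below the common dispersion of these data, 0.0988. Power for differences as small as those seen here was not tested. Import genes described mouse by mouse had an unadjusted p under 0.05, the lowest or highest log2 fold change or a place in a ratio. Of those with only a place in a ratio, *Tomm40*, *Timm17b*, *Pmpca* and *Pmpcb* were given as normalized values and the others as group means of ratios. The members and lists, marker lists included, were chosen with earlier results of these data known.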

Additional observations from a re-analysis of the deposited data

Results flagged for a closer look

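Among 78 sets of 4 values, the normalized values of 31 import genes and the 8 log2 ratios in each group, 2 held a mouse that lay far from the other 3 of its group, by a gap above Dixon's critical value, relative to the group's range. Chance marks about 1 set in 20. *Pam16* read 16.2 in Ox1RΔSERT mouse 11613, against 9.11 to 9.21 in the other 3 Ox1RΔSERT mice, a gap of 0.986 of the range. *Tomm22* read 69.7 in control mouse 11253, against 59.7 to 60.3 in the other 3 control mice, a gap of 0.940 of the range.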

How the results depend on the processing

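No paired analysis was possible because the replicate numbers were given in order of the samples and pair no mice. The fits with an offset for transcript length and those of DESeq2 with a mouse left out, the count of genes below 0, that at an unadjusted p under 0.05, that of groups without overlap and the median relative to all genes were chosen after seeing the data. The number of genes called was 0 under each edgeR and limma alternative and with an adjusted p under 0.1, against 265 with DESeq2 and 373, 247, 49, 17, 1516, 17, 936 and 19 with DESeq2 without mouse 10684, 11253, 11563, 11560, 11243, 11601, 11613 and 11708. DESeq2 called 2 import genes (*Pmpcb* and *Timm17a*) and 3 partners without mouse 11243, 1 import gene (*Pam16*) and 1 partner without mouse 11613, 1 partner without mouse 10684, and otherwise 0 of both. The median of import genes was -0.31 to -0.14 with a mouse left out, and it was -0.030 with library totals, 0.10 on log2(TPM + 1), 0.10 on log2(TPM + 0.1) and -0.058 without mice 11601 and 11708. Relative to all genes that last value was -0.047, and with a mouse left out it was -0.30 to -0.14. The number below 0 was 29 or 30 with a mouse left out, 18 with library totals and 1 on either TPM scale. At an unadjusted p under 0.05 were 10 genes, 1 with library totals, 1 on either TPM scale, 1 to 17 with a mouse left out (17 without mouse 11243, 1 without 11601, 11708 or 11253, and 2 without 11560 or 11563), and 0 without mice 11601 and 11708. The 5 genes without overlap became 0 with library totals, 0 on TPM, and 5 to 14 with a mouse left out (14 without 11243 and 10 without 10684). Ratios that changed sign were close to 0: *Timm8a1*/*Timm8b*, at 0.016, was -0.0086 on normalized counts, -0.049 to 0.069 with a mouse left out and -0.037 without mice 11601 and 11708; *Grpel1*/*Grpel2*, at -0.081, was -0.14 to 0.020 with a mouse left out and 0.036; *Tomm40*/*Tomm40l*, at 0.059, was -0.043 to 0.13 with a mouse left out. No ratio passed the exact permutation test on normalized counts either. There the adjusted p was 0.229 for *Timm17a*/*Timm17b* (log2 difference -0.21) and for *Pmpca*/*Pmpcb* (0.11), against 0.594 for both on TPM. Of the 10 highest genes by TPM, 5 were among the 10 highest by normalized counts. For single genes, relative to all genes, 850 of 868 values had the same sign and side of the threshold, 3 passed it under DESeq2 with a mouse left out and 15 changed sign: limma on log2(TPM + 1), *Mtx1* (0.011), *Timm44* (0.0057); without mice 11601 and 11708, *Mtx1* (0.0022), *Timm10* (0.076), *Timm10b* (0.010), *Timm13* (0.12), *Timm17b* (0.040), *Timm21* (0.038), *Timm44* (0.10), *Tomm40* (0.21), *Tomm40l* (0.028); without mouse 11601, *Tomm40* (0.039); without mouse 11708, *Tomm40* (0.033); DESeq2, without mouse 11601, *Tomm40* (0.043); DESeq2, without mouse 11708, *Tomm40* (0.036). *Tomm40* ranged from -0.21 to 0.039 with a mouse left out. The causes were not tested. *Tomm20l* and *Timm8a2* had no counts at this depth and were not compared, and for the others SE was 0.096 to 0.22 on the log2 scale.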
